A study of Homo sapiens with 7 samples.

Results

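The translation elongation factor genes described here are EEF2, EEF1A1, EEF1B2, EEF1D, EEF1G and EEF2K. They were taken by name, and they are 6 genes beside the 13566 gene IDs that carried a peak of N6-methyladenosine (m6A) in at least 1 list. A peak belongs to a gene when its name column holds the Ensembl ID that lies in the gene's RefSeq span on its strand. An ID was found for 5 of the 6 genes, and these IDs held 40 of 59659 peaks. EEF1B2 had no peak under any ID in its span.

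All libraries came from HEK-293T, an established human embryonic kidney line that carries SV40 large T antigen. The sample titles call the captured libraries treated and the input samples control, and they name no treatment of the cells. MeRIP captures RNA fragments with an antibody against m6A, and m6A-ORL converts the modified base chemically with NO/O2, TDO and the biotin probe BA before capture on streptavidin. Each method has 2 captured libraries. Both MeRIP libraries and m6A-ORL replicate 2 are labelled polyA RNA, whereas m6A-ORL replicate 1 is labelled total RNA, so within m6A-ORL the labelled RNA type and the replicate cannot be told apart. The protocol shared by all samples nevertheless describes oligo(dT) selection. No label says that replicates were separate cultures, and their spread may be technical. The 3 input samples were not analysed here.

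The lists held 20760 and 20216 peaks for MeRIP replicates 1 and 2, and 11022 and 7661 for m6A-ORL replicates 1 and 2. The files hold no read depth, and precision is limited by how few peaks a gene has. Of the genes known to be active in the line, IRS4, NEFM, PAX2 and VIM had 2, 5, 2 and 1 peaks in MeRIP replicate 1 and 7, 5, 0 and 2 in m6A-ORL replicate 2. In m6A-ORL replicate 1 only IRS4 had any of these, with 9. The albumin, beta-globin and CD45 genes (ALB, HBB, PTPRC) had no peak in any list. INS, the insulin gene of pancreatic beta cells, had 1 peak in its span in m6A-ORL replicate 1 and none elsewhere. A peak needs both RNA and enrichment, and expression was not measured.

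During elongation, eEF1A brings each aminoacyl-tRNA to the ribosome as a complex with GTP. The eEF1B complex, built from the products of EEF1B2, EEF1D and EEF1G, reloads eEF1A with GTP, and eEF2 moves the ribosome along the mRNA after each peptide bond. The kinase encoded by EEF2K phosphorylates eEF2 and slows elongation. Many mRNAs for elongation factors and ribosomal proteins are terminal oligopyrimidine (TOP) mRNAs, which begin with a C and an uninterrupted run of C and T. m6A in mRNA lies mostly near stop codons and in long internal exons, and anti-m6A antibodies also bind the related m6Am, which forms where the first transcribed base is A.

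The annotated starts of these transcripts are shown because they show at which of them a TOP run begins, and with which base. The starts used in these cells were not measured. Each line holds 10 bases before and 20 bases from the annotated start, from RefSeq (GRCh38.p14), 5′ to 3′, with the pyrimidine run that begins at the start in capitals. No window was printed for EEF1D.
EEF1A1, chromosome 6, 73521013 to 73521042, minus strand: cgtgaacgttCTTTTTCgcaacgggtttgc
EEF1B2, upstream start, chromosome 2, 206159599 to 206159628, plus strand: aagtggccccagcctcgaggccgggcgtct
EEF1B2, downstream start, chromosome 2, 206159885 to 206159914, plus strand: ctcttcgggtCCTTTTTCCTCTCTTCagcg
EEF1G, chromosome 11, 62573872 to 62573901, minus strand: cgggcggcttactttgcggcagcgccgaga
EEF2, chromosome 19, 3985444 to 3985473, minus strand: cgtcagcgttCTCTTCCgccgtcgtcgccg
EEF2K, chromosome 16, 22206268 to 22206297, plus strand: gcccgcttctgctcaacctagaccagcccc
A C at the start followed by pyrimidines, with a run of at least 5 bases on the transcribed strand, was present for EEF1A1 (7 bases), EEF2 (7 bases) and the downstream start of EEF1B2 (16 bases). Of all 35116 start windows in the table, 4.07% began this way. At the annotated starts of EEF1G and EEF2K no such run began, which says only that these letters are not at that position. No list had a peak in the first 50 transcribed bases of these 6 starts. EEF1D, for which no window was used, had a peak block over the first 50 bases from its RefSeq start in 3 of the 4 lists, both MeRIP lists and m6A-ORL replicate 1. Over all windows of the table, 4.47% and 4.47% had one in the MeRIP lists, and 3.21% and 1.64% in the m6A-ORL lists.

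EEF2 and EEF1D had peaks in all 4 lists. EEF1G had them in both m6A-ORL lists and in neither MeRIP list, EEF2K in both MeRIP lists and in m6A-ORL replicate 1, and EEF1A1 in m6A-ORL replicate 2 alone. Whether a gene was listed by 1 method and not the other was not tested for any single gene.

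Both MeRIP libraries listed 3 of the 6 genes (EEF2, EEF1D and EEF2K), beside 65.9% of the 13566 gene IDs with a peak in any list and 37.1% of the 20056 protein-coding genes in the RefSeq table. Both m6A-ORL libraries listed 3 of the 6 (EEF2, EEF1D and EEF1G), beside 19.3% of the IDs and 12.4% of the protein-coding genes. All 4 lists held 2 of the 6, beside 15.8% and 10.3%. At least 1 list held 5 of the 6, beside 51% of protein-coding genes. Per library, the lists held 3, 3, 4 and 4 of the 6 in the order of MeRIP 1, MeRIP 2, m6A-ORL 1 and m6A-ORL 2. The IDs reached 72.2%, 71%, 53.1% and 33.1% in that order, and the protein-coding genes 40.2%, 39.4%, 28.3% and 20.3%. The count in MeRIP thus lay between its 2 backgrounds, and the count in m6A-ORL lay above both. With 6 genes these shares are a description, and neither background is matched for expression.

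**Figure D1:**
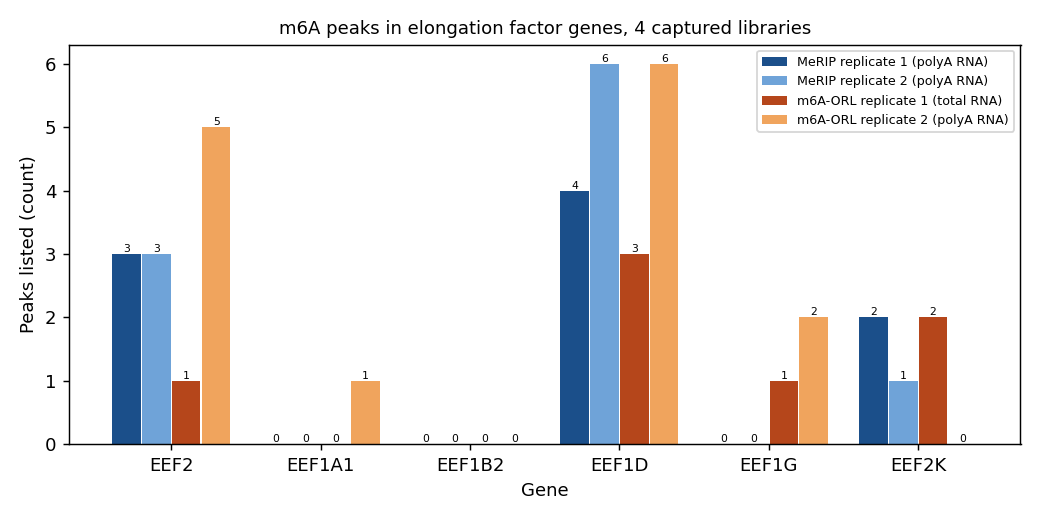
Number of listed m6A peaks (y axis, count) for each elongation factor gene (x axis) in the 4 captured libraries (bars). EEF2 and EEF1D have a bar in every library, EEF1G only in m6A-ORL, and EEF1B2 in none.

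The 6 genes held 9 peaks in MeRIP replicate 1, 10 in MeRIP replicate 2, 7 in m6A-ORL replicate 1 and 14 in m6A-ORL replicate 2. The MeRIP libraries lay between the 2 m6A-ORL libraries. MeRIP had a mean of 9.50 ± 0.707 peaks and m6A-ORL one of 10.5 ± 4.95 (SD over n = 2 libraries each), a difference within the spread of m6A-ORL (exact two-sided permutation p = 1, where 3 splits allow no p below 0.333). Without m6A-ORL replicate 2, the MeRIP mean was higher by 2.50 peaks instead of lower by 1.0. As a share of its list, m6A-ORL replicate 2 held most, with 0.183% of its peaks (exact Clopper-Pearson 95% interval 0.0999 to 0.306). The other lists held 0.0434% (0.0198 to 0.0823), 0.0495% (0.0237 to 0.0910) and 0.0635% (0.0255 to 0.131) in the order of MeRIP 1, MeRIP 2 and m6A-ORL 1. These intervals cover counting error only, and peaks of 1 gene are not independent.

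EEF1A1 (ENSG00000156508; hg38 chromosome 6, 73515750 to 73521032, minus strand) encodes the factor that delivers aminoacyl-tRNA. Its mRNA is known as one of the most abundant in proliferating cells. It had no peak in either MeRIP list or in m6A-ORL replicate 1. The single peak, in m6A-ORL replicate 2, ran from 73518174 to 73518263, which is 2769 to 2858 nt downstream of the annotated start, near the middle of the gene. It covered 90 nt in 1 block, with an authors' score of 3.5e-09 that placed it at rank 1086 of 7661.

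The lists also held copies of EEF1A1 elsewhere in the genome. RefSeq names 50 pseudogenes EEF1A1P followed by a number, which are mostly processed copies of the spliced mRNA. In m6A-ORL replicate 1, the library labelled total RNA, 10 of the 50 had a peak (20%), with 14 peaks in all, beside 6.2% of the 17088 pseudogenes in the table. In m6A-ORL replicate 2 the count was 0 of 50, beside 0.644%. Each MeRIP list had a peak in 1 of the 50, beside 2.26% and 2.3%. That copy was EEF1A1P19 on chromosome 5, with the peaks at 43496190 to 43496395 and 43496160 to 43496307.

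The best-scored copies in that library were EEF1A1P9 on chromosome 4 (105485345 to 105485551, score 9.1e-09) and EEF1A1P13 on chromosome 5 (14652325 to 14652679, score 1.8e-08). EEF1A1P12 on chromosome 2 had the most, with 3 peaks. Thus m6A-ORL replicate 1 listed copies and not the parent gene, and m6A-ORL replicate 2 listed the parent gene and none of its copies. Reads from the mRNA and from a near-identical copy can be assigned to either, and the sources used here do not give how such reads were treated. The counts for EEF1A1 and its copies are therefore uncertain, and the RefSeq table gives no strand for these copies.

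**Figure D2:**
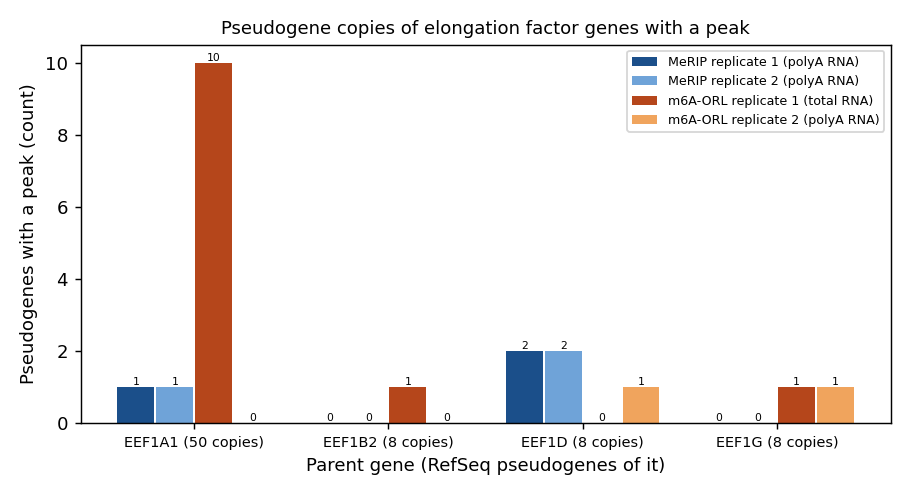
Number of RefSeq pseudogenes with at least 1 peak (y axis, count), grouped by parent gene (x axis, with the number of copies), in each library (bars). The tallest bar is the 10 EEF1A1 copies in m6A-ORL replicate 1, the library labelled total RNA.

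EEF1B2 (chromosome 2, 206159609 to 206162928, plus strand), the gene of the beta subunit with the GTP exchange activity, had no peak in any of the 4 lists. Its span also holds the small nucleolar RNA genes SNORD51 and SNORA41, which had none either. Of its 8 pseudogenes, EEF1B2P3 on chromosome X had 1 peak in m6A-ORL replicate 1 (24788598 to 24788981, score 5.6e-07). This was 12.5% of the 8, beside 6.2% of all pseudogenes. In the other lists none of the 8 had a peak, beside 2.26% and 2.3% in MeRIP replicates 1 and 2 and 0.644% in m6A-ORL replicate 2.

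EEF1G (ENSG00000254772; chromosome 11, 62559596 to 62573891, minus strand) encodes the gamma subunit, a scaffold of the exchange complex. It had 0 peaks in both MeRIP lists, 1 in m6A-ORL replicate 1 and 2 in m6A-ORL replicate 2. The m6A-ORL replicate 1 peak covered 62572677 to 62572857, 1034 to 1214 nt from the annotated start (score 3.2e-09, rank 1978 of 11022). In m6A-ORL replicate 2 a peak of 2 blocks ran from 62571845 to 62572737 (score 7.9e-13, rank 508 of 7661). These peaks overlapped by 61 nt, so EEF1G had a stretch near its 5′ end that both m6A-ORL libraries listed. The second peak of replicate 2 lay at 62566866 to 62566985, 6906 to 7025 nt from the start.

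A second ID, ENSG00000255508, has peaks on the same strand in this span and also beyond it, in the direction of the upstream gene TUT1. Inside the EEF1G span it had 1 peak in m6A-ORL replicate 1 and 3 in replicate 2, of which all but the one at 62571082 to 62571573 overlapped a peak of EEF1G itself in the same list. It had 2 peaks in each MeRIP list, all of them outside the EEF1G span, between 62574769 and 62581124. By span and strand in place of the ID, the m6A-ORL counts for EEF1G were 2 and 5, and those of MeRIP stayed at 0. The absence of MeRIP peaks was the same under both rules. Of 8 EEF1G pseudogenes, EEF1GP5 had a peak in m6A-ORL replicate 1 and EEF1GP2 in m6A-ORL replicate 2. Each was 12.5% of the 8, beside 6.2% and 0.644% of all pseudogenes.

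EEF1D (ENSG00000104529; chromosome 8, 143579728 to 143597415, minus strand) encodes the delta subunit, a second exchange factor that is also made as a longer isoform through alternative splicing. It had 4 peaks in MeRIP replicate 1, 6 in MeRIP replicate 2, 3 in m6A-ORL replicate 1 and 6 in m6A-ORL replicate 2. Counted in bases, peaks covered 3094 and 3456 nt by MeRIP, and 453 and 1206 nt by m6A-ORL. Both MeRIP libraries lay above both m6A-ORL libraries in covered bases, which they did not in peak number. Of genes listed in the same library, 1.76% and 1.08% had as many covered bases by MeRIP, without adjustment for transcript length. By m6A-ORL the shares were 12.3% and 2.22%. Over all listed genes the median was 422 and 421 nt by MeRIP, and 177 and 180 nt by m6A-ORL.

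The best-scored EEF1D peak was internal in both MeRIP lists and in m6A-ORL replicate 1. In m6A-ORL replicate 2 it lay near the 3′ end instead (143580538 to 143581121, score 4e-16, rank 312 of 7661). That peak overlaps a plus-strand peak of the same list, at 143580546 to 143580846 (score 2.5e-16). Among EEF1D peaks of this list without such an overlap, the best ran from 143586171 to 143586849 (score 1.3e-11). In MeRIP replicate 1 a peak from 143587538 to 143590181 joined a block of 27 nt to one of 1354 nt, and in replicate 2 the blocks were 27 and 1384 nt. The authors' score of this peak was 0 in both lists, the best value, which 287 and 308 peaks hold. m6A-ORL replicate 1 had 2 peaks inside the long block, at 143588921 to 143588981 and 143589581 to 143589791. m6A-ORL replicate 2 had 1, at 143589911 to 143590121 (score 3.4e-06, rank 2841). The 2 m6A-ORL libraries thus both listed this long block, but at different places, and across all of EEF1D their peaks shared 0 nt.

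A second MeRIP cluster lay at the 5′ end. Peaks from 143596105 to 143597465 in replicate 1 (scores 1e-122) and 143594506 to 143597465 in replicate 2 (1e-120) ran 50 nt past the annotated start. Each m6A-ORL library had 1 peak that overlapped them, at 143597345 to 143597525 in replicate 1 and in 2 blocks from 143596735 to 143596895 in replicate 2. A further MeRIP peak lay 230 to 2126 nt upstream of the RefSeq start in replicate 1 (143597645 to 143599541, score 1e-186), and 140 to 2126 nt upstream in replicate 2 (score 1e-192). It shared 261 nt with a peak of 2396 nt on the plus strand that belongs to TIGD5, a neighbour in the opposite orientation, with a score of 0 in both MeRIP lists. The sources used here do not give whether counting used strand, so reads of the 2 genes cannot be told apart there.

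Toward the 3′ end m6A-ORL replicate 2 listed peaks that the others mostly lacked. It had 4 peaks within 7121 nt of the annotated 3′ end, from 143586171 to 143586849, 143582231 to 143582471, 143580538 to 143581121 and 143579727 to 143580086. Both MeRIP lists had a peak of 91 nt at 143580538 to 143580628, MeRIP replicate 2 had another of 91 nt at 143581751 to 143581841, and m6A-ORL replicate 1 had none in this stretch. Peaks of 2 plus-strand IDs, ENSG00000279605 and ENSG00000254741, lay opposite to several of these. Without EEF1D peaks that overlap an opposite-strand peak of the same list, 2, 3, 3 and 3 peaks remained in the order of MeRIP 1, MeRIP 2, m6A-ORL 1 and m6A-ORL 2. Covered bases were then 2642, 2823, 453 and 513 nt, with both MeRIP libraries still above both m6A-ORL libraries. Over whole lists 11.1%, 11.02%, 7.49% and 7.05% of peaks overlapped an opposite-strand peak.

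**Figure D3:**
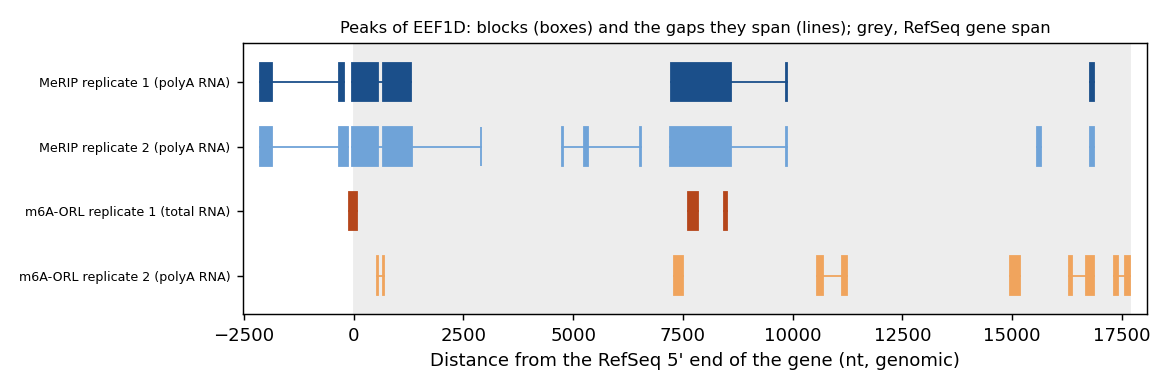
Peaks of EEF1D in the 4 libraries (rows) by genomic distance from the RefSeq 5′ end in nt (x axis), with blocks as boxes, spanned gaps as lines and the RefSeq span in grey. The long internal MeRIP block holds peaks of both m6A-ORL libraries that do not overlap each other.

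Of 8 EEF1D pseudogenes, EEF1DP2 and EEF1DP3 had peaks in both MeRIP lists (25%, beside 2.26% and 2.3% of all pseudogenes). EEF1DP3 has a long span that holds peaks of 2 IDs, and the RefSeq table gives no strand for these copies. EEF1DP2 on chromosome 9 (92836766 to 92837741) had peaks of 843 nt on the minus strand in both MeRIP lists (92836826 to 92837668, scores 3.2e-36 and 2e-28). A plus-strand ID, ENSG00000187984, had MeRIP peaks over the same stretch. Its single m6A-ORL replicate 2 peak in this pseudogene, of 61 nt, lay just beyond that stretch (92837672 to 92837732). EEF1DP2 was the only 1 of the 8 with a peak in m6A-ORL replicate 2 (12.5%, beside 0.644% of all pseudogenes). No EEF1D pseudogene had a peak in m6A-ORL replicate 1, beside 6.2% of all pseudogenes. With 8 copies these shares are a description. Reads shared with EEF1D cannot be told apart here either.

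EEF2 (ENSG00000167658; chromosome 19, 3976056 to 3985463, minus strand) is the translocase gene. The MeRIP lists held 3 peaks each, m6A-ORL replicate 1 held 1 and m6A-ORL replicate 2 held 5. Every list had a peak at the 3′ end. It ran from 3976175 to 3976652 in both MeRIP lists, from 3976294 to 3976592 in m6A-ORL replicate 1 and from 3976235 to 3976652 in m6A-ORL replicate 2. The 299 nt common to all 4 lists lay 238 to 536 nt before the annotated 3′ end, and EEF2 was the only 1 of the 6 genes with bases common to all 4 lists. This peak scored 0 in both MeRIP lists, 2e-39 in m6A-ORL replicate 1 (rank 349 of 11022) and 1e-312 in m6A-ORL replicate 2 (rank 3 of 7661).

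The other MeRIP peaks of EEF2 were also present in m6A-ORL replicate 2. A peak of 2 blocks in the middle of the gene, 3980757 to 3981384 in MeRIP replicate 1 and 3980787 to 3981384 in replicate 2, had scores of 1e-175 and 1e-129. A weaker peak lay at 3977972 to 3978121 in replicate 1 and at 3978002 to 3978062 in replicate 2 (scores 6.3e-29 and 3.2e-13). m6A-ORL replicate 2 overlapped both of these with wider peaks, one of 5 blocks from 3977267 to 3979893 (score 1e-146) and one of 4 blocks from 3980787 to 3982369 (1.6e-33). It had a further pair nearer the 5′ end, 3982909 to 3983179 and 3984101 to 3984900, where no other list had a peak.

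The MeRIP peaks covered 897 and 778 nt of EEF2, against 299 nt in m6A-ORL replicate 1 and 2328 nt in m6A-ORL replicate 2. Of the MeRIP bases, 90.0% and 92.3% lay in peaks of m6A-ORL replicate 2. Of the m6A-ORL replicate 2 bases, 34.7% and 30.8% lay in MeRIP peaks, since that library covered far more of the mRNA. The ratio of bases covered in m6A-ORL replicate 2 to the MeRIP mean was 2.78 for EEF2 and 0.368 for EEF1D, against a median of 0.286 over 3242 genes with peaks in these lists. A ratio as high as that of EEF2 was found for 2.81% of those genes. In m6A-ORL replicate 1 the ratio for EEF2 was 0.357, close to the median of 0.362 over 4425 genes, and for EEF1D it was 0.138. Among the libraries labelled polyA RNA, m6A-ORL thus covered more of EEF2 than MeRIP did and less of EEF1D, with 41.4% of genes at or above the EEF1D ratio. An alternative chosen after the data were seen left out the EEF1D peaks that overlap an opposite-strand peak. The EEF1D ratio was then 0.188 (513 nt against a MeRIP mean of 2732.5 nt). The median was not recomputed without such peaks, so this ratio has no like median beside it. There is 1 m6A-ORL library labelled polyA RNA, so neither the EEF2 nor the EEF1D ratio has a replicate.

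**Figure D4:**
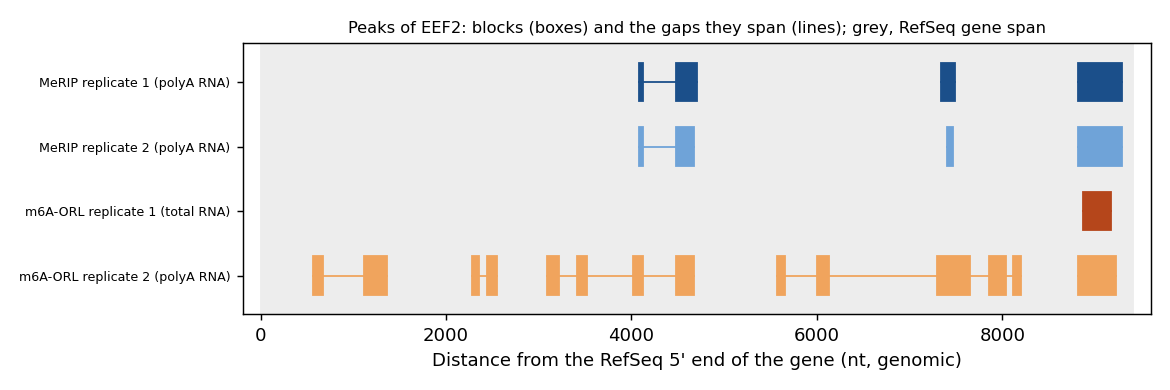
Peaks of EEF2 in the 4 libraries (rows) by genomic distance from the RefSeq 5′ end in nt (x axis), with blocks as boxes and spanned gaps as lines. All rows share the block at the 3′ end, and m6A-ORL replicate 2 has blocks along most of the gene.

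**Figure D5:**
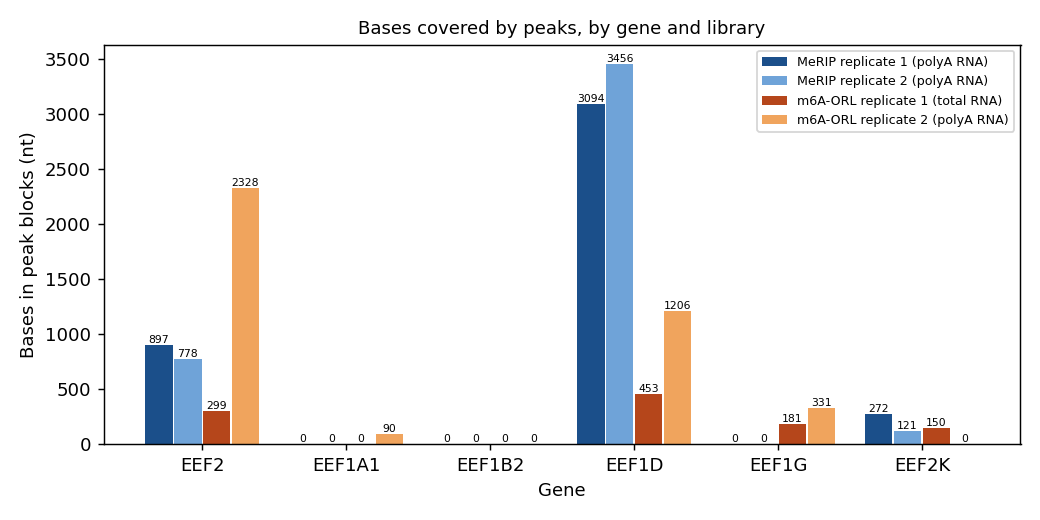
Bases in peak blocks (y axis, nt) for each gene (x axis) in the 4 libraries (bars). m6A-ORL replicate 2 is highest for EEF2 with 2328 nt, and the MeRIP libraries are highest for EEF1D with 3094 and 3456 nt.

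EEF2K (ENSG00000103319; chromosome 16, 22206278 to 22288738, plus strand), the kinase that phosphorylates eEF2, had 2 peaks in MeRIP replicate 1, 1 in MeRIP replicate 2, 2 in m6A-ORL replicate 1 and 0 in m6A-ORL replicate 2. The midpoint of every peak lay in the last 10% of the span. The MeRIP libraries shared a peak at 22287300 to 22287450 in replicate 1 and 22287330 to 22287450 in replicate 2, 1288 nt before the annotated 3′ end (scores 1.7e-07 and 8.9e-05). The m6A-ORL replicate 1 peaks, 22284664 to 22284753 and 22286132 to 22286191, overlapped no MeRIP peak. They scored 0.00039 and 0.0011 (ranks 8935 and 10423 of 11022). The MeRIP libraries and this 1 m6A-ORL library therefore listed the same end of EEF2K at different positions. Counted from the best score, its best peak stood 54.8% and 76.0% of the way down the MeRIP lists and 81.1% down that of m6A-ORL replicate 1. With 7661 best-scored peaks taken from each list, EEF2K had none in any list.

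Positions were compared over all 6 genes, with at least 1 shared nt on the same strand as overlap. MeRIP replicate 2 overlapped 8 of the 9 peaks of MeRIP replicate 1 (83.6% over the whole list). m6A-ORL replicate 2 overlapped 2 of the 7 peaks of replicate 1 (13.8% over the whole list), which were the EEF2 3′ peak and the EEF1G 5′ peak. Either MeRIP library overlapped 4 of 7 m6A-ORL replicate 1 peaks (whole list 54.7%) and 6 of 14 of replicate 2 (47.8%). In the other direction, m6A-ORL replicate 2 overlapped 6 of 9 and 6 of 10 MeRIP peaks, all in EEF2 and EEF1D, against 14.8% and 14.5% over the whole lists. For m6A-ORL replicate 1 the counts were 3 of 9 and 3 of 10 (33.3% and 30%), near the 25.3% and 25.0% of the whole lists. Peaks in more than 1 block were 5 of 9 and 5 of 10 in MeRIP replicates 1 and 2. In m6A-ORL replicates 1 and 2 they were 0 of 7 and 9 of 14. The whole lists had 16.9%, 16.3%, 9.88% and 27.8% in the same order. Whether the gaps between blocks are introns was not checked. These shares are descriptions, since peaks of 1 gene share their mRNA.

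Other genes that serve or regulate elongation were counted by gene span and strand, 33 in all. Both MeRIP lists had peaks in 21 (63.6%, beside 37.1% of protein-coding genes) and both m6A-ORL lists in 10 (30.3%, beside 12.4%). With 7661 peaks from each list these counts were 13 and 10, and the share of protein-coding genes at that length was not computed. All 4 lists had peaks in 7 of them (21.2%, beside 10.3%). These were CALM2 and CALM3, genes of calmodulin, which activates the EEF2K kinase, PPP2CA, a catalytic subunit of phosphatase PP2A, and METTL13, a methyltransferase that modifies eEF1A. DPH1, needed to make the diphthamide of eEF2, TSFM, the mitochondrial exchange factor, and HARS1, histidyl-tRNA synthetase, completed the group. CALM3 had 2 peaks in either MeRIP library, 3 in m6A-ORL replicate 1 and 4 in replicate 2. DPH1 had 3 peaks in every list except m6A-ORL replicate 2, where it had 2. PPP2CA had 4 and 3 by MeRIP, then 1 and 2 by m6A-ORL.

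Genes for initiation and termination, 42 in all, were set beside them. Both MeRIP lists had peaks in 18 (42.9%), near the 37.1% of protein-coding genes. Both m6A-ORL lists had peaks in 18 (42.9%), beside 12.4%. The genes with peaks in all 4 lists numbered 11 (26.2%, beside 10.3%), among them EIF4G1, the scaffold of the cap-binding complex, with 7, 6, 4 and 10 peaks in the library order used above. The release factor gene ETF1 had 3, 3, 3 and 2. GSPT1, its GTPase partner, had 2, 2, 3 and 2. EIF3A, EIF3B, EIF3G, EIF3J and EIF3L, subunits of eIF3, also had peaks in every list, as did EIF4G3, EIF4EBP1 and EIF5. EIF5B, which promotes joining of the ribosomal subunits, had 3, 3, 0 and 3.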

How the data were processed

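Peaks of m6A in HEK-293T cells were read from 4 deposited lists, 1 per captured library, in 12 BED columns per the file headers. The score is given by the authors for each peak, and its deposited values, between 0 and 0.0081, have the range of a p-value or q-value. The sources used here do not give the peak caller, its input, threshold or pooling. The build hg38 and the tools HOMER, STAR and Trim Galore are named without role, per the submitters' processing notes. Scores served only to rank peaks within a list.

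Exact duplicate lines (4, 3, 2 and 1) were removed. Genes were placed by RefSeq spans (GRCh38.p14, the same build, 0 Ensembl IDs in the table), with strand where a start window gave it and on either strand otherwise. A peak was placed in a span when at least 50% of its block bases lay in the span. Of IDs sharing a span, the one with the highest share of its own bases inside was used (for EEF1D, which had no strand in the table, the one with most bases). Overlaps used bedtools 2.31.1, and tests used Python 3.11.15. The functions for placement and overlap were tested on simulated data. The method means were compared by exact permutation. Members and lists were chosen with earlier results of these data known. All 6 genes are named, and of the other lists those with peaks in all 4 libraries and the 5 with most peaks. A search for motifs in peaks was not run, since peak sequences were not used here. Alternatives were assignment by span, equal list length, the better-scored 50%, duplicates kept, other overlap rules and leaving out libraries.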

Additional observations from a re-analysis of the deposited data

How the results depend on the processing

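The difference in member peaks (MeRIP minus m6A-ORL, -1.0) stayed negative by span and strand (-3.5), at equal list length (-3.0), in the better-scored 50% (-2.0), with duplicates kept, and without peaks that overlap an opposite-strand peak (-2.0, added after the data were seen). It ranged from -4.5 to 2.5 when 1 library was left out, and was positive only without m6A-ORL replicate 2. With the replicate number as a block (exact sign flip) it was -1.0 (p = 1), and the labels do not say that equal numbers pair the libraries. Counting a peak in at least 1 m6A-ORL library gave 5 member genes in place of 3, 24 other elongation genes in place of 10 and 35 initiation and termination genes in place of 18. With 1 m6A-ORL library left out, these were 4 to 4, 17 to 17 and 25 to 28. Of all protein-coding genes, 28.3% had a peak in m6A-ORL replicate 1 and 20.3% in replicate 2. The share with a peak in at least 1 of these libraries was not computed. At equal list length, other elongation genes in both MeRIP lists fell from 21 to 13. The share of MeRIP replicate 1 member peaks overlapped by replicate 2 then rose from 88.9% to 100%. Only 3 peaks of EEF2 and 3 of EEF1D were left in MeRIP replicate 1 at that length. The EEF1D ratio of covered bases (m6A-ORL replicate 2 over MeRIP) went from 0.368 to 0.188 without peaks that overlap an opposite-strand peak. In all, 40 of 51 alternative values counted as unchanged, but the limits for this were loose, so the tally does not measure robustness. No limit was set for the EEF1D ratios of covered bases, and these were entered as changed. For the difference in member peaks, any negative value counted as unchanged, down to -4.5. For initiation and termination genes by m6A-ORL, 25 in place of 18 still counted as unchanged. For the share of m6A-ORL replicate 1 member peaks on MeRIP peaks, the limits were 18.4% and 90.1%. The replicate block gives the same difference as the main comparison by construction. Positions on exons and motifs in peaks were planned and not run. Depth is unknown, so a gene without a peak is not shown to lack m6A.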
